A study of Mus musculus with 3 samples.

Results

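Pericentral sinusoidal endothelial cells were taken from a pooled single-cell matrix of mouse liver and were chosen by measured values, the UMIs (unique molecular identifiers, the count of captured mRNA molecules) of 11 genes in each barcode. A barcode counted as one of these cells when it held at least 200 genes and at most 20% mitochondrial UMIs, at least 8 UMIs of Stab2, Clec4g, Oit3 and Gpr182 together, at most 2 of the Kupffer cell genes Clec4f, Cd5l and Marco, and at least 4 of Wnt2, Rspo3, Cdh13 and Kit. This gave 303 barcodes, out of 771 that passed the sinusoidal endothelial gates, 3230 that passed the quality limits and 4638 in all. The periportal type used for comparison passed the same first gates with at most 1 UMI of the 4 pericentral genes and at least 5 of Ltbp4, Adam23 and Esm1, and had 264 barcodes. The other 204 gated barcodes passed neither zone gate and are called between-gates barcodes.

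Non-parenchymal cells were sorted from the livers of LSL-Tomato/Ai14 mice, in which Cre recombinase switches on a red fluorescent protein in every cell it reaches. The 3 groups received PBS, 20a-LNP or 20mix-LNP, the 2 lipid nanoparticles (LNPs) carrying Cre mRNA at 0.3 mg/kg, and were collected 3 h later, with 1 library per group. No source used here gives the mice's age, their number per library or which populations the sort kept. The matrix marks each barcode with suffix 1, 2 or 3, and no source used here ties a suffix to a treatment, so values are given by suffix, the whole matrix counts as 1 sample, and no treatment is compared and no test is made. Intervals are exact 95% intervals and cover counting error only.

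Sinusoidal endothelial cells line the liver capillaries. They have open pores and no complete basement membrane, and they clear proteins, immune complexes and lipids from portal blood through scavenger receptors. Blood runs from the portal tract to the central vein, and the endothelium near the central vein is known for secreting Wnt2, Wnt9b and Rspo3, ligands that keep the neighbouring hepatocytes in their pericentral state, while the endothelium near the portal tract carries Dll4 and Efnb2. Zone is therefore a position along the capillary, and the gates divide what is known as a gradient.

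The promoters of 3 genes are shown because the zone gate and the Notch results below turn on these genes: Wnt2, a gate gene; Lfng, the glycosyltransferase that modifies Notch receptors; and Dll4, the Notch ligand of the portal side. Each is the 250 bases before the RefSeq start (GRCm38.p6), printed 5′ to 3′ on the gene's strand, with matches to the RBPJ letters TGGGAA (reverse TTCCCA) and the KLF letters CACCC (reverse GGGTG) in capitals. Wnt2 lies at chr6:18030446-18030695 on the minus strand, Lfng at chr5:140607091-140607340 on the plus strand and Dll4 at chr2:119325534-119325783 on the plus strand.
Wnt2: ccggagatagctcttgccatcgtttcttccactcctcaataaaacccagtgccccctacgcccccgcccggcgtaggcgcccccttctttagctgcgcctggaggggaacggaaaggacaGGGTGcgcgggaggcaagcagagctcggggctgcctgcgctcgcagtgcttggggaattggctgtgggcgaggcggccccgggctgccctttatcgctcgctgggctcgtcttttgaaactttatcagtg
Lfng: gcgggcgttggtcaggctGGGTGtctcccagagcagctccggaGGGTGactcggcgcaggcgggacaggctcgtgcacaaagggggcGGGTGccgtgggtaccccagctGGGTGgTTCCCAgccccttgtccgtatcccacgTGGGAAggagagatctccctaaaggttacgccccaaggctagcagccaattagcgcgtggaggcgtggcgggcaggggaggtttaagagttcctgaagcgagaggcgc
Dll4: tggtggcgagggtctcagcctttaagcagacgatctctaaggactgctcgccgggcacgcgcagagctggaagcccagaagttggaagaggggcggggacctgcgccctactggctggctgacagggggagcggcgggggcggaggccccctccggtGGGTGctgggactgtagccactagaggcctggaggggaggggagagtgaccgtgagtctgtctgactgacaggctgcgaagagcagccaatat
The Lfng window held 2 RBPJ and 4 KLF matches, the Wnt2 window 1 KLF match and the Dll4 window 1 KLF match. Over 32851 promoter windows of this length, 21.6% held the RBPJ letters and 52.0% the KLF letters on either strand. The GATA letters AGATAA (reverse TTATCT), found in 9.99% of windows, were in none of the 3. A match is a description of the letters and no measure of binding. Rspo3, Thbd, Cdh13, Msr1, Vwf and Angpt2 had no entry in the promoter table.

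Pericentral barcodes made up 39.3% of the gated sinusoidal endothelial barcodes (95% Clopper-Pearson interval 35.8 to 42.8). By suffix they numbered 60 of 188 (31.9%), 36 of 127 (28.3%) and 207 of 456 (45.4%, interval 40.8 to 50.1). Suffix 3 was above the other two, whose intervals reached 39.1 and 37.0. As a share of all kept barcodes the pericentral type was 7.88%, 3.22% and 15.3%, a number the sort can set. Where zone gates need a count of UMIs, depth also enters: the median was 7025 UMIs in pericentral, 4202 in between-gates and 6196.5 in periportal barcodes, and its part in the shares was not tested. The pericentral median was 7854, 7836 and 6749 UMIs in suffixes 1, 2 and 3, and that of all gated sinusoidal endothelial barcodes 6627.5, 6216 and 6315 UMIs. Of the barcode sequences, 3 occurred under more than 1 suffix, 2 of these being pericentral. Doublet calling marked 4 pericentral and 3 periportal barcodes.

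The gate genes that chose the barcodes are given as a description. Kit, a receptor tyrosine kinase, had a UMI in 288 of the 303 pericentral barcodes, Wnt2 in 82.5%, Cdh13, a cadherin anchored to the membrane by lipid, in 69.0%, and Rspo3, an amplifier of Wnt signalling, in 15.8%. In 602 barcodes with natural killer cell genes and a median of 6514 UMIs, the same shares were 6.15%, 0.166%, 0.498% and 0%, the last of which allows up to 0.611%. Of the 303 barcodes, 26 held UMIs of 1 of the 4 genes, 97 of 2, 145 of 3 and 35 of all 4. Wnt2 measured 286, 251 and 384 counts per 1000000 UMIs (CPM) in suffixes 1, 2 and 3, against 3.71, 8.79 and 19.3 in periportal barcodes. Rspo3 measured 403, 275 and 187 CPM, against 0, 2.93 and 0. The portal gate genes were not absent: 242 of the 303 barcodes also held at least 5 UMIs of Ltbp4, Adam23 and Esm1. Ltbp4, a binding protein of latent TGF-beta, stood at 781 CPM in pericentral and 1447 CPM in periportal barcodes, and Esm1, the proteoglycan endocan, at 15.3 and 484 CPM. At the threshold itself, 62 barcodes held 3 UMIs of the 4 genes and 48 held 4. Thbd measured 104 CPM in the barcodes of 3 UMIs and 164 CPM in those of 4, Slco2a1 146 and 272 CPM, Lfng 54.3 and 111 CPM, Gas6 328 and 331 CPM, and Msr1 237 and 136 CPM.

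**Figure D1:**
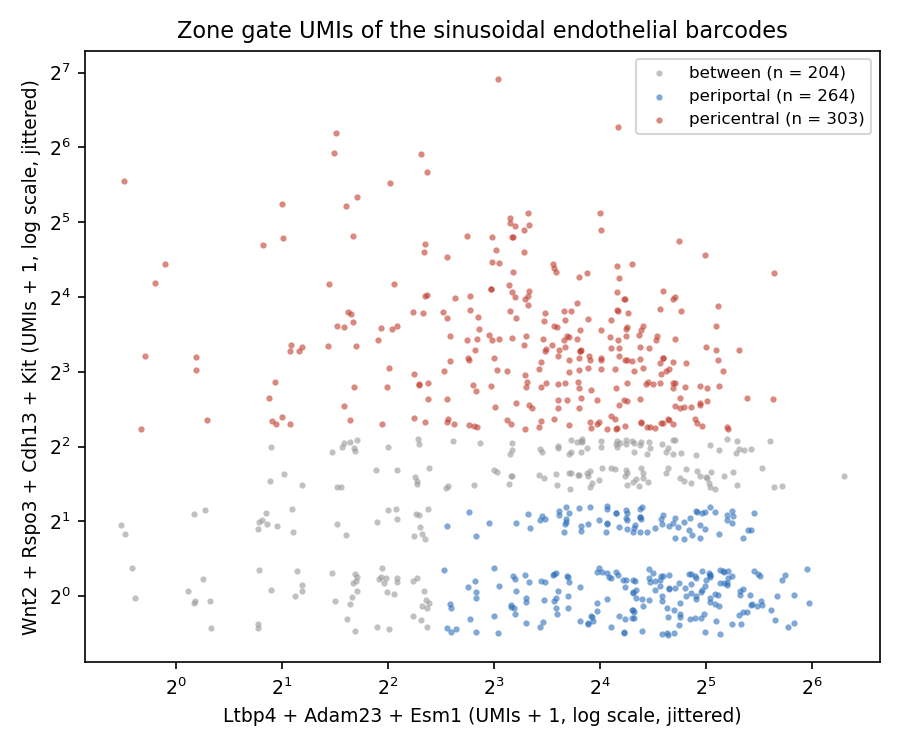
Each point is 1 of the 771 gated barcodes, with Ltbp4, Adam23 and Esm1 UMIs on the horizontal and Wnt2, Rspo3, Cdh13 and Kit UMIs on the vertical axis, both plus 1 on log scales with a small jitter. The 303 pericentral barcodes (red) adjoin the 204 between the gates (grey) with no empty band, and most of them overlap the 264 periportal barcodes (blue) along the horizontal axis.

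The sinusoidal identity was checked on 8 markers outside the gate, and all 8 were present. Stab1, a scavenger receptor of damaged proteins, measured 1972 CPM in pericentral and 1439 CPM in periportal barcodes, Fcgr2b, which takes up immune complexes, 2785 and 2654 CPM, and Dnase1l3, which digests circulating DNA, 2674 and 2026 CPM. Lyve1, a hyaluronan receptor, went the other way, at 1725, 1444 and 1471 CPM by suffix against 2652, 2783 and 2247 CPM. Neither group overlapped the other for Lyve1, yet the ratio of 0.614 was within 2-fold. The whole marker list had a median ratio of 1.08. Of the other cell types, Kupffer markers summed to 38.3 CPM in pericentral and 9.96 CPM in periportal barcodes (Timd4 at 0, and 3 of the list limited by the gate), T cell markers to 7.66 and 11.7 CPM (Trac at 0), hepatic stellate markers to 4.96 and 11.1 CPM (Reln and Col1a1 at 0), and neutrophil markers to 0.451 and 0 CPM. Hepatocyte markers summed to 125 CPM, with 147, 171 and 108 CPM by suffix, against 178, 489 and 155 CPM in periportal barcodes. Natural killer markers summed to 42.4 CPM against 19.3 CPM, and 48 of the 53 Gzma UMIs came from 1 pericentral barcode. Vascular endothelial markers summed to 537 and 437 CPM, lymphatic endothelial markers to 6.31 and 10.5 CPM (Pdpn and Mmrn1 at 0), cholangiocyte markers to 0.901 and 0 CPM (Sox9 and Krt7 at 0), and B cell and plasmacytoid dendritic cell markers to 2.70 CPM each against 5.86 and 8.79 CPM. Genes of pericentral hepatocytes, led by the glutamine synthetase gene Glul at 452 against 611 CPM, summed to 496 against 651 CPM. The part of these cell types in the results was not tested.

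Outside the gates, 5877 genes averaged at least 25 CPM over both types. A gene was called when it differed at least 2-fold in the pooled barcodes and in the same direction in each of the 3 suffixes. In pericentral barcodes 62 genes (1.05%) were called higher and 50 (0.851%) lower, and the median gene had a ratio of 1.02. Since the gates used the same barcodes, these counts are a description. Of the called genes, 14 were higher by 4-fold or more and 11 lower by 4-fold or more. The counts depend on the gates and the rule, and those of other settings are given at the end. The between-gates barcodes lay between both types for 58 of the 62 and 46 of the 50. These genes were picked for their difference between types cut from the same zone UMIs. A level between both was therefore likely beforehand, and the counts are no separate evidence of a gradient.

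Thbd encodes thrombomodulin, the endothelial receptor that turns thrombin from a clotting enzyme into an activator of protein C (chromosome 2, 148404466 to 148408188, minus strand, GRCm38). Its level was 260, 212 and 372 CPM in pericentral barcodes of suffixes 1, 2 and 3, and 55.7, 35.2 and 85.8 CPM in periportal barcodes. The lowest pericentral suffix was above the highest periportal one, and the ratio was 4.93 (4.04 to 6.07). Gas6 is a vitamin K dependent ligand of the TAM receptors, which act in the uptake of dying cells. It measured 507, 512 and 483 CPM against 150, 126 and 139 CPM, a ratio of 3.51 (3.05 to 4.06). The 3 suffixes were close together within each type. Vwf, the platelet-tethering factor, measured 139, 122 and 65.9 CPM against 5.57, 0 and 18.1 CPM. Of the 8 coagulation genes tested, these 3 were called higher and none lower, with a list median of 1.37. Over all tested genes 1.05% were called higher and 0.851% lower. Vwf came from 15 pericentral barcodes, and it was not called (ratio 1.63) without the barcodes rich in Rspo3 described below. F8, clotting factor VIII, which the liver endothelium makes, stood at 1783 and 1443 CPM, and Tfpi, the tissue factor pathway inhibitor, at 326 and 310 CPM.

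Among the 8 landmarks of the central zone outside the gate, 4 were abundant enough to be tested. Of these, 3 were called higher, with a median ratio of 2.82, beside 1.05% called higher over all tested genes. Besides Thbd these were Ptgs1, the constitutive cyclooxygenase, at 403, 428 and 457 CPM against 134, 90.8 and 149 CPM, and Plpp1, a lipid phosphate phosphatase, at 1070 against 464 CPM. Fabp4, a fatty acid carrier, had a ratio of 1.55 and was not called. Wnt9b, the other Wnt ligand of this endothelium, was too sparse for the rule, but all 75 of its UMIs in the 2 types were in pericentral barcodes, at 34.7, 24.4 and 35.4 CPM by suffix. With 3 UMIs over the periportal group as the floor it was at least 19.2-fold higher. Lhx6, a LIM homeodomain factor, had 49 UMIs against 0 (at least 12.6-fold higher by the same floor), and Dkk3, of the Dickkopf family, 46.9 against 1.76 CPM.

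On the portal side, 5 of the 6 tested landmarks were called lower in pericentral barcodes, with a list median of 0.315. Over all tested genes the share called lower was 0.851%. Efnb2, the ephrin of arterial endothelium, measured 149, 55.7 and 83.9 CPM against 380, 202 and 290 CPM in periportal barcodes. Ntn4, a basement membrane netrin, measured 270, 90.5 and 171 CPM against 599, 527 and 583 CPM. For both, every pericentral suffix was below every periportal one. Msr1, the class A scavenger receptor, measured 83.8, 27.8 and 49.2 CPM against 470, 267 and 349 CPM, a ratio of 0.146 (0.119 to 0.178). Adgrg6, an adhesion receptor, was called at 19.4 against 58.0 CPM, on UMIs from 7 pericentral barcodes, and was not called without suffix 3 (ratio 0.622). Il1a, at 52.7 against 83.2 CPM, was not called.

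The other genes furthest above the periportal level had varied roles. Rnase4, a secreted ribonuclease, measured 157, 174 and 189 CPM against 16.7, 14.6 and 36.3 CPM, with a ratio interval of 5.12 to 9.78. Jup, the junction protein plakoglobin, measured 133, 132 and 159 CPM against 37.1, 32.2 and 19.3 CPM. Slco2a1, a prostaglandin transporter, measured 352, 334 and 388 CPM against 65.0, 46.9 and 133 CPM. In each, no suffix of one type overlapped the other. Ackr4, a decoy receptor that removes chemokines, stood at 77.1 against 17.0 CPM. Cd9, a tetraspanin, stood at 330 against 82.6 CPM, Lgals1, a galectin, at 151 against 37.5 CPM, Hpse, the enzyme that cuts heparan sulphate, at 50.5 against 13.5 CPM (ratio 4.39 without suffix 3, where it was under the 25 CPM filter), and Rarb, a retinoic acid receptor, at 59.9 against 17.0 CPM. Slco3a1, an organic anion transporter, Fgfr1, an FGF receptor, and Car8, a carbonic anhydrase relative, had ratios of 4.26, 4.54 and 3.49. Plppr5, Slc26a10, Cit and Olfm1 had ratios of 6.69, 5.71, 4.90 and 3.70.

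Fmo2, a flavin monooxygenase, had the highest ratio among the genes past the 25 CPM filter, 23.7, at 303, 223 and 66.6 CPM by suffix against 7.42, 17.6 and 0 CPM. Few barcodes carried it: its 308 UMIs lay in 13 barcodes, and 145 of them in a single one. Vwf came from 15 barcodes. Mgp, a matrix calcification inhibitor called higher at 78.4 against 28.1 CPM, came from 5, and 44 of its 48 periportal UMIs from 1. Its ratio of 2.79 went to 20.8, without a call, when the highest barcode of each type was left out, to 38.0 at a limit of 10% mitochondrial UMIs and to 18.7 without suffix 1.

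Of the genes called lower, Slc45a4, a solute carrier, had 11 UMIs in all pericentral barcodes, at 14.3, 0 and 2.77 CPM against 193, 223 and 138 CPM. Vegfc, the ligand of VEGF receptor 3, measured 2.04, 0 and 5.55 CPM against 63.1, 46.9 and 36.3 CPM, and Angpt2, a context-dependent Tie2 ligand, 20.4, 13.9 and 20.1 CPM against 139, 193 and 60.4 CPM. Of the receptors of these ligands, neither called, Flt4 stood at 1072 against 1180 CPM and Tek at 504 against 364 CPM. Kcnj8 and Abcc9, which encode the pore and the sulfonylurea receptor of one ATP-sensitive channel, stood at 8.11 against 56.2 CPM and 57.7 against 232 CPM, and Kcnj2, an inward rectifier, at 11.3 against 55.1 CPM. Mecom, a zinc finger transcription factor, stood at 26.1 against 110 CPM, Galnt15, a glycosyltransferase, at 60.4 against 228 CPM, Car2, carbonic anhydrase 2, at 9.46 against 42.2 CPM, and 8430408G22Rik at 9.46 against 41.6 CPM. Hbb-bs, a haemoglobin chain, met the rule at 9.46 against 4336 CPM, but 7366 of its 7403 periportal UMIs came from 1 barcode of suffix 3, and without that suffix it was not called (ratio 0.315). Some sparse genes lost their call when 1 suffix was left out, since their mean level was then under 25 CPM. Without suffix 1 the ratio of Vegfc was 0.118 and that of Kcnj2 0.117, and without suffix 2 that of Car2 was 0.308 and that of 8430408G22Rik 0.311.

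**Figure D2:**
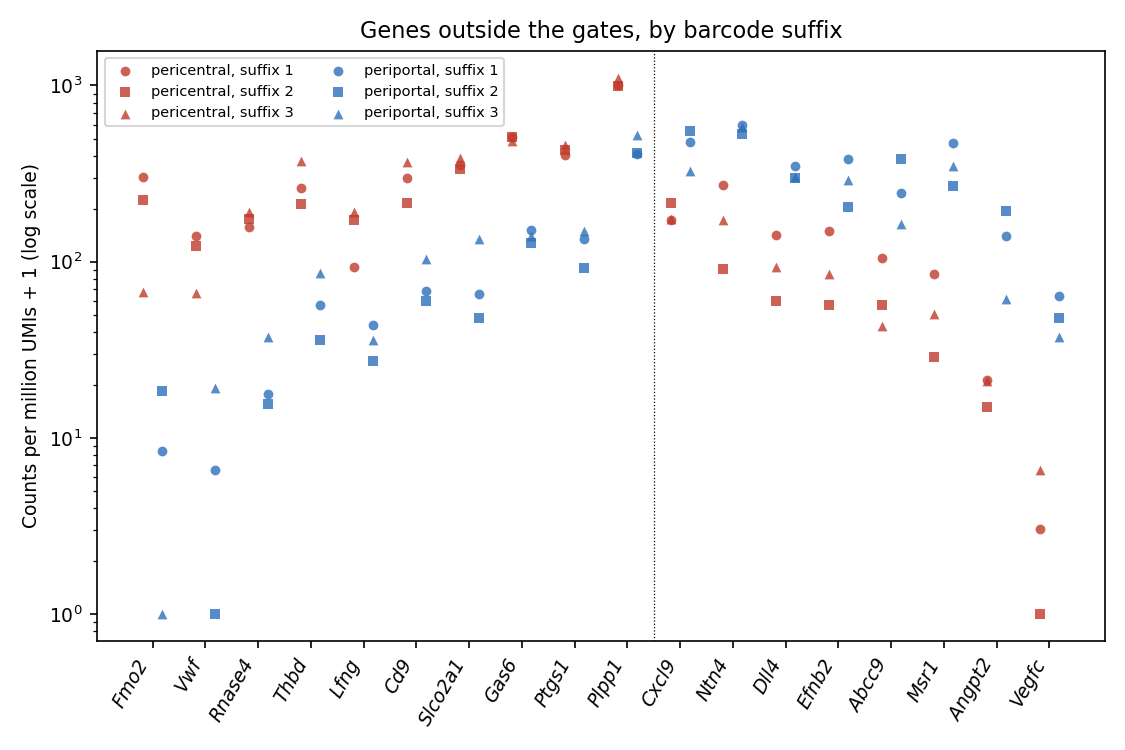
CPM plus 1 (log axis) of 18 called genes in the pericentral (red) and periportal (blue) barcodes, 1 marker shape per suffix, with genes higher in pericentral barcodes left of the dotted line. For Thbd the pericentral suffixes sit between 212 and 372 CPM and the periportal ones between 35.2 and 85.8 CPM, and for Msr1 the order is turned.

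In the Notch pathway a modifying enzyme was higher and a ligand lower. Lfng, which alters how Notch responds to Delta and Jagged ligands, measured 92.0, 171 and 189 CPM against 42.7, 26.4 and 35.1 CPM, a ratio of 4.63 (3.52 to 6.18). Dll4 measured 141, 59.2 and 92.9 CPM against 349, 296 and 301 CPM, a ratio of 0.315 (0.268 to 0.369). The 2 genes differed in opposite directions, and for neither did the suffixes of both types overlap. The receptors Notch1 and Notch4 stood at 398 and 86.5 CPM against 471 and 101 CPM. The target gene Hes1 measured 208 against 371 CPM, with suffix values of 313, 188 and 177 against 507, 372 and 283 CPM that overlapped. Of 11 pathway genes tested, Lfng alone was called higher and Dll4 alone lower, and the median was 0.854. The shares over all tested genes were 1.05% higher and 0.851% lower.

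The Wnt pathway beyond the gate ligands gave no call in either direction among 13 tested genes, with a median of 1.24. The shares called over all tested genes were 1.05% higher and 0.851% lower, so a list of this size would often hold none. The receptor Fzd4 stood at 381 against 275 CPM, the co-receptors Lrp6 and Lrp5 at 217 against 153 CPM and 177 against 107 CPM, and Wls, which carries Wnt proteins to the cell surface, at 220 against 177 CPM. Axin2, a common target of the pathway, had too few UMIs to test, at 3.61 against 1.17 CPM. Among 9 tested angiocrine ligands, the signals endothelium sends to neighbouring cells, Angpt2 and Vegfc were called lower and none higher. The 2 gate genes of this list were left out of the calls. Edn1, the endothelin gene, had a ratio of 3.81 (42.4 against 11.1 CPM) but was not called. Its ratio was 0.998 without the barcodes rich in Rspo3 described below. Wnt9b and Bmp4 (17.1 against 1.17 CPM) were under the 25 CPM filter. Bmp2 and Bmp6, which set hepatocyte hepcidin, stood at 1686 against 1445 CPM and 164 against 184 CPM, and the hepatocyte growth factor Hgf at 87.0 against 92.5 CPM. The median was 0.940.

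Msr1 was the only one of 9 scavenger receptors to be called. Mrc1, the mannose receptor, stood at 2411 against 2353 CPM, and Cd36, a fatty acid and thrombospondin receptor, at 701, 571 and 561 CPM against 1214, 1169 and 1013 CPM. Cd36 was lower in each suffix, by less than 2-fold when pooled. None of 17 clathrin endocytosis genes was called (median 1.03). At the shares over all tested genes, 1.05% higher and 0.851% lower, a list of this size would often hold no call. In the lysosome 1 of 17 was called lower, the tetraspanin Cd63 at 23.4 against 59.7 CPM, while the protease Ctsd stood at 522 against 304 CPM. In caveolae 1 of 6 was called higher, the coat protein Cav1 at 46.0 against 18.7 CPM. Of 9 adhesion genes, the junctional molecule Jam2 was called higher at 376 against 181 CPM and the sialomucin Cd34 lower at 23.0 against 48.0 CPM. Without the barcodes rich in Rspo3 described below, Jam2 had a ratio of 1.58, against 2.08 with them, and was not called. Cav1, at 2.26 against 2.45, and Cd34, at 0.515 against 0.479, were not called either, with ratios close to those before. Without suffix 3, neither Cd63 (ratio 0.685) nor Cav1 (1.47) was called, without suffix 2 neither Cd34 (0.558) nor Jam2 (1.88), and without suffix 1 not Jam2 (1.87).

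Over all tested genes 1.05% were called higher and 0.851% lower, so lists of the sizes below would often hold no call at that share. None of 25 endothelial transcription factors was called (median 0.945), with Maf at 3334 against 3093 CPM and Sox18, a factor of arterial and lymphatic vessels, at 180 against 333 CPM. None of 12 receptors for VEGF, angiopoietins and S1P was called (median 1.06), with Kdr at 3061 against 2767 CPM. None of 14 hypoxia genes was called (median 0.894), and Epas1, the endothelial hypoxia factor, stood at 758 against 1082 CPM. The 11 immediate early genes, which cell dissociation is known to induce, had no call and a median of 0.710. Of 21 interferon response genes, Ifit1 was called lower at 53.6 against 118 CPM, though not without suffix 3 (ratio 0.507), and the median was 0.842. Cxcl9, an interferon-induced T cell attractant, was called lower at 172, 216 and 173 CPM against 477, 548 and 328 CPM, the single call among 4 chemokines. None of 6 fatty acid handling genes and none of 3 antigen presentation genes was called. In the matrix list Mgp was the 1 call of 12, beside Col4a1 at 670 against 511 CPM. Alb, a hepatocyte gene, was called lower at 59.0 against 122 CPM, though not without suffix 2 (ratio 0.606) or suffix 3 (0.550), beside the hepatocyte marker sums given above, and what part free hepatocyte RNA has in it was not tested.

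**Figure D3:**
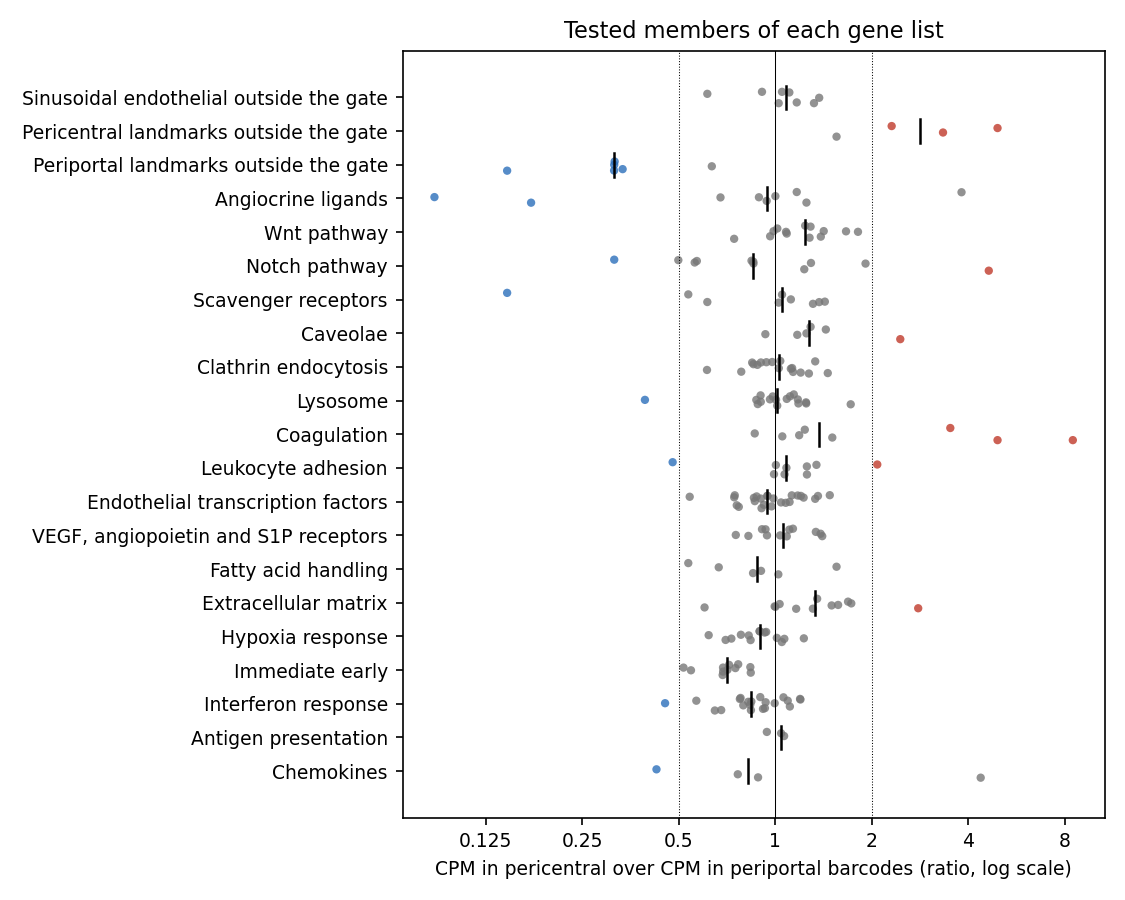
Each point is a tested gene of a list, placed by its CPM ratio of pericentral over periportal barcodes on a log axis, red if called higher, blue if called lower and grey if not called, with the list median as a black bar and dotted lines at 2-fold either way. The landmark lists stand at medians of 2.82 and 0.315, and the other lists have medians between 0.710 and 1.37.

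Several genes called between the types were also followed over the number of zone gate UMIs, which the types themselves were cut from. Over steps of 0 to 1, 2 to 3, 4 to 5, 6 to 9 and 10 or more UMIs, chosen after values were seen and holding 337, 131, 76, 98 and 129 barcodes, Thbd measured 69.2, 107, 153, 187 and 506 CPM. Gas6 measured 155, 279, 341, 425 and 610 CPM over the same steps, and Ptgs1 143, 213, 268, 354 and 584 CPM. All 3 were higher at each step than at the one before. Msr1 went from 345 through 182, 128 and 54.7 to 18.6 CPM, and Efnb2 from 278 through 174, 163 and 122 to 43.1 CPM. Dll4 went from 296 to 66.5 CPM and was level between the third and the fourth step, at 124 and 129 CPM. Lyve1 went from 2366 through 2160, 2010 and 1959 CPM to 990 CPM in the last step. Median depth was higher in the last step too, at 7685 against 5345 UMIs in the first, and its part in the gradient was not tested. Other genes had no such order. Vwf measured 12.7, 17.3, 70.2, 0 and 160.5 CPM, Fmo2 5.81, 1.15, 2.07, 1.40 and 299 CPM, and Fabp4 903, 863, 859, 1056 and 1862 CPM, each highest in the last step. That step held 164 UMIs of Vwf, 306 of Fmo2 and 1903 of Fabp4. The 28 barcodes rich in Rspo3 described below held 164, 305 and 889. The thinned barcodes, cut to 3000 UMIs each, gave 95 genes higher and 77 lower between the types. Thinning left out 18 pericentral and 19 periportal barcodes and kept 88 of the 112 calls. Of the named genes, Alb, Cd63, Jam2 and Kcnj8 were then not called.

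**Figure D4:**
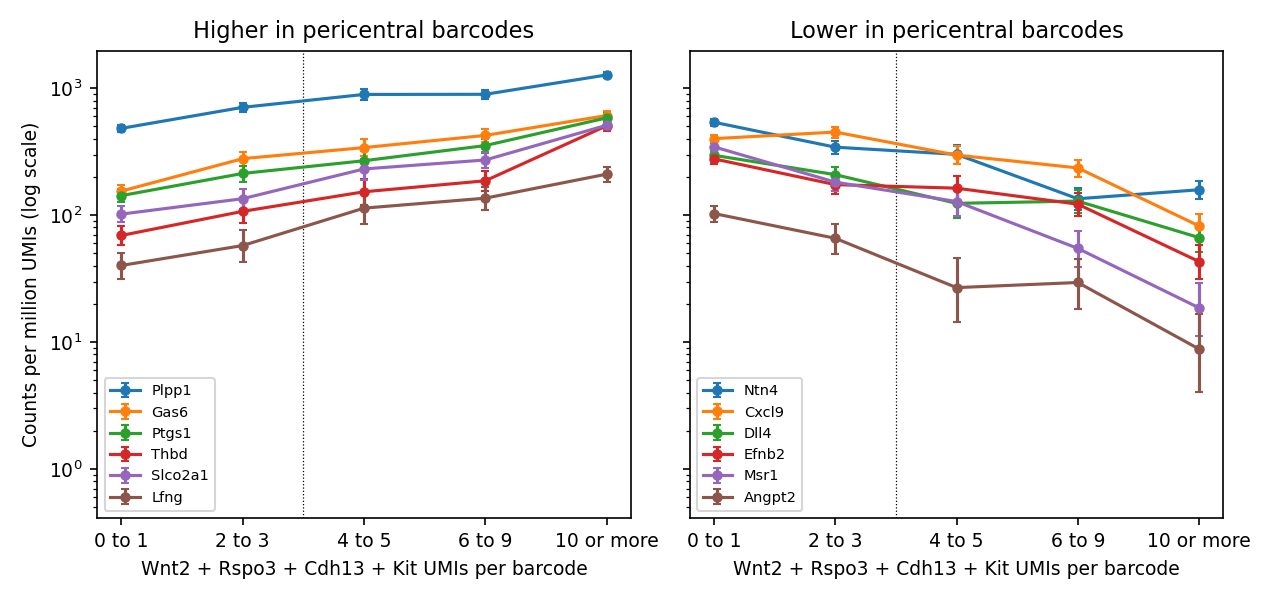
CPM (log axis) of 6 genes called higher and 6 called lower, by the number of Wnt2, Rspo3, Cdh13 and Kit UMIs per barcode, with exact Poisson intervals as bars and a dotted line at the pericentral gate. Thbd climbs from 69.2 to 506 CPM and Msr1 drops from 345 to 18.6 CPM over the 5 steps.

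Rspo3 divided the pericentral barcodes. It was at 0 UMIs in 255 barcodes, at 1 or 2 in 20 and at 3 or more in 28, and those 28 barcodes held 518 of its 546 UMIs. The groups were cut after the values were seen. The 28 came from all suffixes, 6 of 60 (10.0%), 6 of 36 (16.7%, interval 6.37 to 32.8) and 16 of 207 (7.73%), shares whose intervals overlapped, with a median depth of 8146 UMIs against 6994 in the 255. Between these groups 232 of 5953 tested genes (3.90%) were called higher and 217 (3.65%) lower by the same rule, but 28 barcodes leave single ones with weight, so the number of barcodes behind a gene is given. The 28 held 237264 UMIs, against 2218801 in all pericentral barcodes. At so few UMIs more genes pass 2-fold by counting error, so these shares cannot be compared with those between the zones.

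Fmo2 measured 2341, 1236 and 760.5 CPM by suffix in the 28 barcodes and 0, 0 and 2.50 CPM in the 255. A UMI of it was found in 10 of the 28, and 145 of its 308 pericentral UMIs lay in 1 barcode of suffix 1. Vwf measured 886, 676 and 597 CPM against 28.9, 0 and 18.3 CPM, in 13 of 28. Selp, the P-selectin that endothelium stores with Vwf, stood at 249 against 2.74 CPM, in 14 of 28. Of the 198 pericentral Vwf UMIs, 164 were in these 28 barcodes. Wnt9b stood at 177 against 13.7 CPM, in 15 of 28. Edn1, the vasoconstrictor endothelin, stood at 303 against 12.1 CPM in 10 of 28, Entpd1, which breaks down extracellular ATP, at 185 against 3.84 CPM in 12 of 28, Bmp4 at 135 against 3.29 CPM in 10 of 28, and Mgp at 657 against 9.88 CPM in only 3 of 28. Fabp4 measured 4287, 3690 and 3492 CPM against 899, 1220 and 1104 CPM by suffix. Of the other vascular endothelial markers, Emcn, a sialomucin, stood at 455 against 269 CPM and Ly6a at 164 against 96.0 CPM, both higher by less than 2-fold. Cd34, at 8.43 against 26.3 CPM, had 2 UMIs in the 28, and Ly6c1, at 0 against 1.65 CPM, had 0. Those are too few to give a direction. Thbd and Cd9 were high in both groups and higher in the 28, at 679 against 266 CPM and 835 against 252 CPM.

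Several sinusoidal genes were lower in the 28 barcodes. Lyve1 measured 285, 734 and 319 CPM by suffix against 1990, 1681 and 1655 CPM. Stab2, a gate gene, measured 633, 599 and 548 CPM against 1672, 1657 and 1715 CPM. No suffix overlapped for either gene. Fcgr2b stood at 1273 against 3017 CPM, Flt4 at 438 against 1164 CPM, Bmp2 at 679 against 1850 CPM, Clec4g, another gate gene, at 1083 against 2286 CPM, Cxcl9 at 21.1 against 199 CPM and Hgf at 12.6 against 101 CPM. Msr1 had no UMI in the 28, where 3 UMIs would be 12.6 CPM, against 65.8 CPM in the 255. Of the other zone gate genes, Cdh13 measured 1092, 850.0 and 760.5 CPM by suffix against 263, 197 and 333 CPM, with no overlap, while Wnt2 stood at 468 against 334 CPM and Kit at 691 against 639 CPM. Stab2 and Clec4g belong to the gate, so their presence here was fixed by it, and Stab1, outside the gate, stood at 1412 against 2039 CPM.

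Without the 28 barcodes, 53 genes were called higher and 44 lower, and 89 of the 112 calls were kept. Thbd kept a ratio of 4.29, Gas6 of 3.46, Rnase4 of 6.72, Lfng of 4.35 and Dll4 of 0.343. Vwf had a ratio of 1.63 and was not called, and Fmo2, at 1.51 against 5.86 CPM, was no longer higher in pericentral barcodes. Of the 3 coagulation genes, Thbd and Gas6 therefore remained called.

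**Figure D5:**
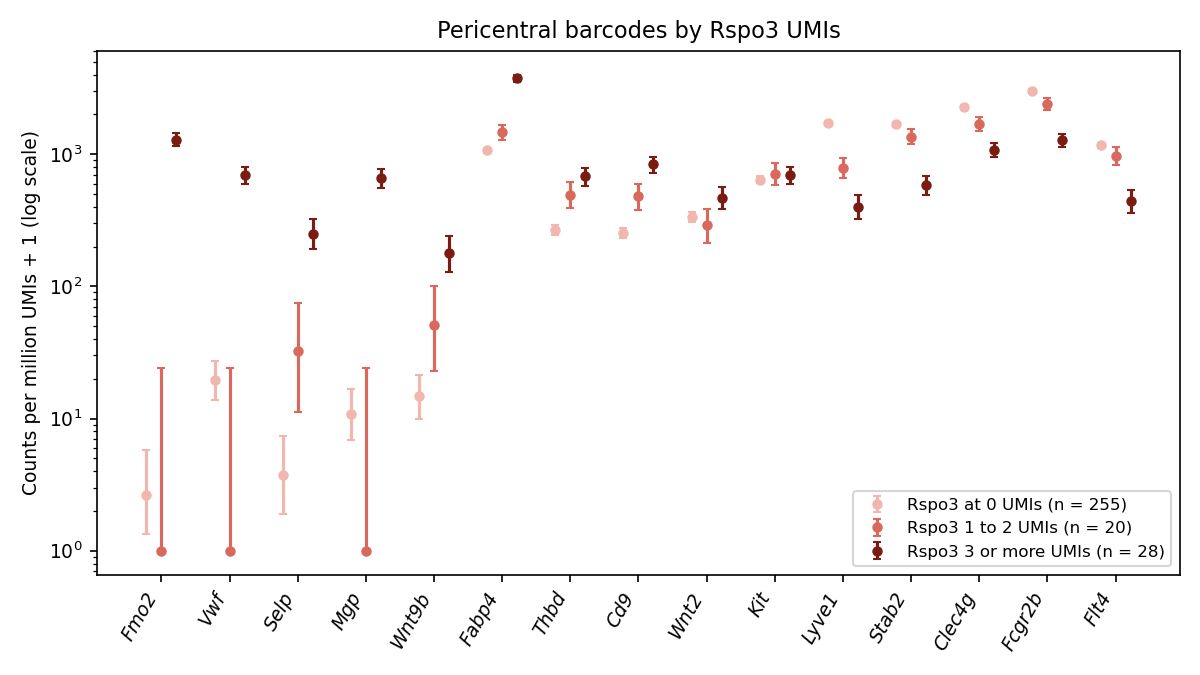
CPM plus 1 (log axis) with exact Poisson intervals in pericentral barcodes of 0, 1 to 2 and 3 or more Rspo3 UMIs. The zone gate required more UMIs of Wnt2, Cdh13 and Kit in barcodes without Rspo3 than in those rich in it. Fmo2, Vwf, Selp, Mgp and Wnt9b are near the bottom in the 255 barcodes without Rspo3 and high in the 28 with 3 or more, Wnt2 stands at 468 against 334 CPM and Kit at 691 against 639 CPM, and Lyve1, Stab2, Clec4g, Fcgr2b and Flt4 are lower in the 28.

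Across suffixes the pericentral barcodes were alike for most genes. Of 1841 genes at 100 CPM or more, 24 (1.30%) differed at least 2-fold between the highest and lowest suffix, and the median gene differed 1.23-fold. The widest was Cxcl10, an interferon-induced chemokine, at 249, 45.2 and 193 CPM. Its periportal values of 410, 99.6 and 196 CPM were also lowest in suffix 2. Ly6a, an interferon-responsive surface protein, measured 110, 24.4 and 114 CPM against 169, 108 and 226 CPM in periportal barcodes, again lowest in suffix 2 in both types. Csf1, the macrophage growth factor, measured 296, 87.0 and 187 CPM against 195, 85.0 and 207 CPM. All 3 genes were thus lowest in suffix 2 in both zones. The 21 interferon response genes together were not, at 3914, 4169 and 4215 CPM in pericentral and 4161, 4284 and 4347 CPM in periportal barcodes. Cxcl9, given above, was highest in suffix 2 in both types. Fmo2, at 303, 223 and 66.6 CPM, and Cfap43, at 49.1, 143 and 162 CPM, completed the 5 widest. For Fmo2, 145 of its 308 UMIs were in 1 barcode of suffix 1. No source used here says what a suffix stands for, so an animal, a sort, a library and a treatment cannot be told apart in these differences. Ccl5, a T cell chemokine, measured 0, 358 and 50.6 CPM, with 100 of its 176 UMIs in 1 barcode of suffix 2.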

How the data were processed

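Sorted liver non-parenchymal cells were measured with droplet 3' single-cell RNA sequencing, and the deposited matrix of raw UMI counts holds 31053 genes and 4638 barcodes. Per the matrix header it was written by Cell Ranger 3.1.0, and the submitters' processing notes name STAR, Seurat, edgeR and the mm10 build. About 2000 cells were loaded per condition, per the labels' protocols, and the suffixes hold 1211, 1701 and 1726 barcodes. The members and gene lists were chosen with earlier results of these data known. UMIs were summed over the barcodes of a type and divided by their total (2218801 UMIs in pericentral, 1707427 in periportal barcodes) to give CPM. Ratios have exact conditional intervals, levels exact Poisson intervals and shares exact binomial (Clopper-Pearson) intervals at 95%. Genes under a mean of 25 CPM and the 14 gate genes were left out of the calls. Called genes named are the 20 highest and 12 lowest ratios, list members called, up to 4 abundant members of each list, and the 5 widest by suffix. Other genes named (the Rspo3 groups, the steps of zone UMIs, some list members) were chosen after their values were seen. Doublets were scored with Scrublet in scanpy 1.11.5, which marked 23 of 3230 kept barcodes, and were kept in. The calling rule was checked on simulated counts with known fold changes, from which no value is given. Alternatives were other gates, other filters, thinning to 3000 UMIs and leaving out suffixes or barcodes. Gene positions are GRCm38 and promoters come from the RefSeq table of GRCm38.p6. Symbols were matched by the feature table.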

Additional observations from a re-analysis of the deposited data

Results flagged for a closer look

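Of the barcodes removed for over 20% mitochondrial UMIs, 9 passed the pericentral UMI gates, 1 under suffix 1, 1 under suffix 2 and 7 under suffix 3. They were flagged because they carry the pericentral signal in data that no comparison used.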

How the results depend on the processing

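Against 62 genes called higher, 50 lower and a pericentral share of 39.3%, the zone gate by share of zone UMIs gave 159, 128 and 8.69%, with 6 pericentral landmarks and 17 other list members higher (3 and 6 before), 16 other members lower (8 before), and landmark medians of 4.54 and 0.204 (2.82 and 0.315 before). A pericentral gate of 8 UMIs gave 105 higher, 5 landmarks higher, 13 other members lower, a median of 5.14 and a share of 23.0%. Leaving out 1 suffix gave 75 to 125 higher, 49 to 77 lower and a share of 30.5 to 41.7%, with the furthest values (125, 77 and 30.5%) without suffix 3. A limit of 10% mitochondrial UMIs moved the share to 44.5%. Thinning to 3000 UMIs gave 95 and 77, no CPM filter 474 and 254, and a 3-fold rule 24 and 19, the last 2 by construction. The causes of the others were not tested.

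Without the 28 pericentral barcodes of 3 or more Rspo3 UMIs, a setting chosen after seeing the data, 2 other list members were called higher, and the ratios of Fmo2 (0.259) and Mgp (0.323) reversed. These were the 2 reversals among 644 values of 46 named genes under 14 settings. Of the others, 559 lay within the counting interval of the reported ratio and 83 outside it in the same direction. Both reversals rest on few UMIs or barcodes. Fmo2 stood at 1.51 against 5.86 CPM there, and 44 of the 48 periportal Mgp UMIs came from 1 barcode. No paired analysis was possible because the labels give each group 1 library and no suffix has a group. Depth limits genes under 25 CPM, where many levels rest on a few UMIs.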

Other observations

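Other genes called between the types were outside the lists and were picked here after their values were seen. Cyp26b1, an enzyme that breaks down retinoic acid, stood at 956 CPM in pericentral, 531 CPM in between-gates and 365 CPM in periportal barcodes, and was called higher beside the receptor gene Rarb. Gja4, the gap junction protein connexin 37, stood at 337, 163 and 127 CPM, Fmo1, a relative of Fmo2, at 301, 162 and 138 CPM, and Lbp, the lipopolysaccharide binding protein, at 202, 68.4 and 67.9 CPM. Over the Rspo3 groups, Cyp26b1 measured 759, 599 and 1063 CPM by suffix in the 28 barcodes of 3 or more UMIs and 482, 624 and 1217 CPM in the 255 of 0, and Gja4 285, 270.5 and 384 CPM against 166, 154 and 423 CPM, so for both the direction differed between suffixes.

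Ephrins other than Efnb2 were also called lower in pericentral barcodes: Efnb1 stood at 155 against 332 CPM and Efna1 at 92.4 against 218 CPM. Insr, the insulin receptor, stood at 248 against 513 CPM, and Itgb3, an integrin chain, at 72.1 against 146 CPM. Ctgf, a secreted matrix protein induced by stretch, was called lower at 337 against 985 CPM, yet in the 28 barcodes rich in Rspo3 it measured 348, 483 and 1799 CPM by suffix against 424, 403 and 133 CPM in those without Rspo3, so the direction differed between suffixes 1 and 3. The heat shock genes Hspa1a and Hspa1b stood at 0 and 8.43 CPM in the 28 and at 79.6 and 145 CPM in the 255.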
